A study of Mus musculus with 14 samples.

Results

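Resident macrophage identity genes are the 7 genes Siglec1, Adgre1, Cd5l, Spic, Vsig4, Maf and Nr1h3, chosen by symbol as genes whose products mark macrophages that live in tissues or help to set their programme. All 7 were found, among 24980 genes in a table of dendritic cells and 17118 genes in a table of monocytes and macrophages. Values come from RNA sequencing of 14 mouse libraries, each made from bone marrow cells sorted by flow cytometry. The sorting protocol names mice with GFP in one copy of Cx3cr1 (Cx3Cr1gfp/+), and the design text of the series calls the treated mice wild type. The labels give no age, sex, dose or time after treatment.

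Dendritic cells were sorted as CX3CR1-GFP high, MHC class II high and CD11c high, without Gr-1 and B220, in 2 groups of 4 libraries. One group of mice received vehicle alone, and the other received PAM3CSK4 once, a lipopeptide ligand of the TLR1/2 receptor pair. Macrophages were sorted at baseline as GFP-negative, MHC class II high and CD169-positive, without Gr-1 and B220 (3 libraries). Baseline monocytes carried high GFP and CD115 and lacked B220, whatever their level of Gr-1 (3 libraries). Siglec1 encodes CD169, so its level in macrophages was held up by the gate. Nothing in the labels ties libraries to individual mice, and p-values therefore rest on a spread between libraries that may be partly technical.

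The listed genes summed to between 350368 and 578711 CPM per library. One step of the values, taken as 1 read, put 28.2 to 75.2 reads behind 1 CPM. The number of libraries limits the precision of every comparison.

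Resident macrophages settle in a tissue, clear dying cells and recycle what they take up. In bone marrow, macrophages that carry CD169 sit at the centre of erythroblast islands, take up the nuclei that maturing red cells expel and help to retain blood stem cells. Spic is the transcription factor of iron-recycling macrophages and is known to be induced by heme, and Maf and Nr1h3 (the liver X receptor LXR alpha) are transcription factors of mature and lipid-handling macrophages. The other 4 genes encode products at the surface or in the blood: the sialic acid receptor CD169 (Siglec1), the adhesion receptor F4/80 (Adgre1), the complement receptor CRIg (Vsig4) and the secreted scavenger protein CD5L, also called AIM (Cd5l). In bulk libraries, fewer cells of a type and less RNA per cell cannot be told apart.

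Promoter sequences are shown for the 3 members that rose in dendritic cells after PAM3CSK4, from 250 bases before to 50 bases after a gene start, taken from RefSeq (GRCm38.p6, the build mm10). Of the 7 members, Cd5l, Spic, Vsig4 and Nr1h3 have a window there. Capitals mark letters searched for on both strands: the PU box GAGGAA, the core of sites of PU.1 and Spi-C, the nuclear receptor half-site AGGTCA, and the MAF half-site TGCTGA.
Cd5l, chr3:87357631-87357930, plus strand: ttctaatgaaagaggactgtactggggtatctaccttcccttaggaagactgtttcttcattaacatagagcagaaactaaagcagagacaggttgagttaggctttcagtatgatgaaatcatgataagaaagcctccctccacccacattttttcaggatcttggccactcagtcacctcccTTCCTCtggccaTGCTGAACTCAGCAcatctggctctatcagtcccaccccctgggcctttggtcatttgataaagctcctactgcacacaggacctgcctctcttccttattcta
Spic, chr10:88682974-88683273, minus strand: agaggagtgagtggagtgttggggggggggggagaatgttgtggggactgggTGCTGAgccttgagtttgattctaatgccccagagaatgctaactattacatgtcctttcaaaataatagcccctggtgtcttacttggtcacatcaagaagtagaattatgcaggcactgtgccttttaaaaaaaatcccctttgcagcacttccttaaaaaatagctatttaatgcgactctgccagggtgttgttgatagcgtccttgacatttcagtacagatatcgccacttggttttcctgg
Nr1h3, chr2:91195067-91195366, minus strand: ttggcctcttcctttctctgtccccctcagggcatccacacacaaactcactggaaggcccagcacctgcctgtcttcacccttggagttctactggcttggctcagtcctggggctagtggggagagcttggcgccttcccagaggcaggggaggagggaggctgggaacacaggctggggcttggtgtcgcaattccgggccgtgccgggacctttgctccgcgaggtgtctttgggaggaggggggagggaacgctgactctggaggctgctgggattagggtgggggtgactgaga
The Cd5l window held 1 PU box, on the reverse strand, and 2 MAF half-sites that face each other across 2 bases, which make up the palindrome TGCTGANNTCAGCA. It begins at position −54 from the gene start. That palindrome was looked for after the half-sites had been seen, and 2 of 32851 windows of this length held it. The Spic window held 1 MAF half-site and the Nr1h3 window shown held none of the motifs, while a second, downstream Nr1h3 start had 1 PU box in its window. The window of Vsig4 held 2 PU boxes and 1 MAF half-site. A PU box occurred in 28.3% of all windows, a MAF half-site in 19.5%, a nuclear receptor half-site in 16.3% and a direct repeat of the latter spaced by 4 bases (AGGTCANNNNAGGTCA, the classical form bound by LXR) in 5 windows, with neither of the last 2 in any member's window. A match is a description of letters and not evidence of binding.

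In dendritic cells, 3 of the 6 members that could be tested rose after PAM3CSK4 and the other 3 did not pass, where 5.12% of all 11377 genes tested changed, 2.82% upwards and 2.29% downwards (limma, adjusted p under 0.05 over all genes). Cd5l, Spic and Nr1h3 were each between 8.06 and 10.3 times higher by group means, and each was higher in all 4 PAM3CSK4 libraries than in any vehicle library, where 10.1% of all genes were higher and 4.68% lower with no overlap. Siglec1 was the only one of the 6 with a lower mean after PAM3CSK4. Vsig4, which was not tested, had means of 0.111 and 0.0474 CPM, close to the limit of detection. The median log2 change of the 6 members was 1.95, against 0.20 over all genes tested, and it includes Siglec1 at −1.66. The members were chosen with earlier results of these data known, so this median is a description only. Values are CPM, reads relative to a library total, not divided by gene length, so levels are compared within a gene only.

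**Figure D1:**
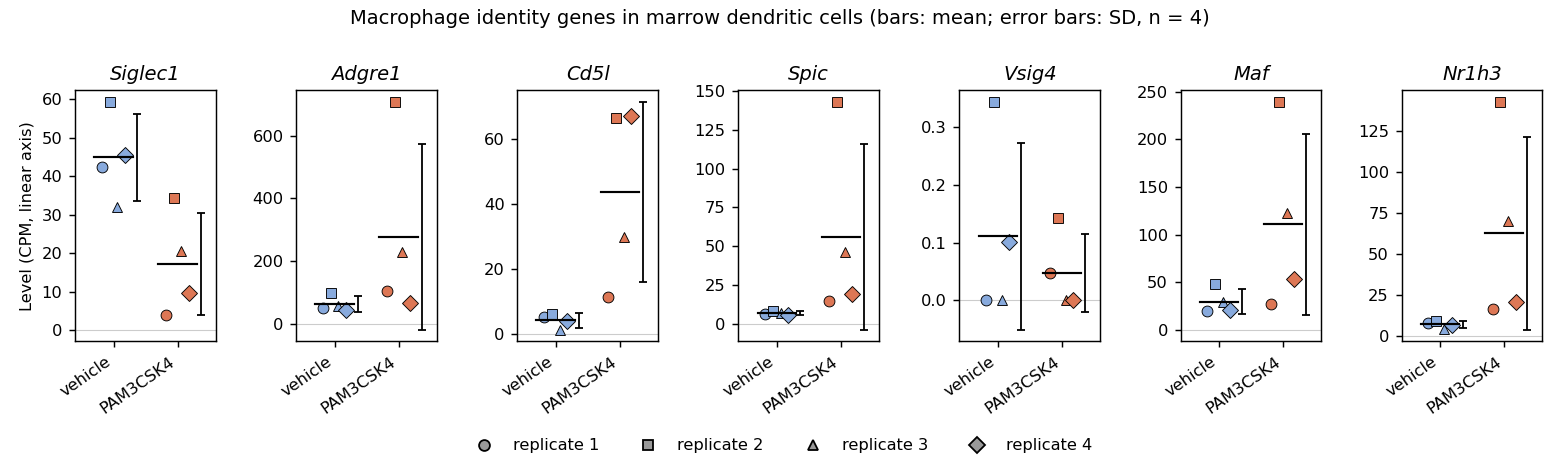
Level of each of the 7 genes in CPM (linear axes, one panel per gene) in dendritic cell libraries from vehicle and PAM3CSK4 mice. Each symbol is 1 library with its replicate number, horizontal bars are means and error bars SD (n = 4). Cd5l, Spic and Nr1h3 separate the groups, and PAM3CSK4 replicate 2 holds the highest level of Adgre1 (709 CPM), Spic, Maf and Nr1h3 in its group.

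Among the transcription factors, Spic (chromosome 10, 88675270 to 88683023 in mm10) stood at 6.31, 8.52, 7.18 and 5.70 CPM in vehicle replicates 1 to 4. It stood at 15.0, 143, 46.2 and 19.1 CPM in PAM3CSK4 replicates 1 to 4. The vehicle libraries lay within 1.49 times of each other and the PAM3CSK4 libraries within 9.56 times, with no overlap between groups. The log2 change was 2.29 ± 0.55 (SE, adjusted p = 0.0341). This call was lost without any 1 of 5 libraries (each vehicle library and PAM3CSK4 replicate 3, adjusted p up to 0.11) and when genes of low values were kept (adjusted p = 0.125), while the log2 change stayed between 1.65 and 2.71.

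Nr1h3 (chromosome 2, 91184061 to 91195116), the oxysterol-sensing LXR alpha, showed the same separation. Its level was 7.72, 9.27, 4.58 and 6.69 CPM in the vehicle libraries and 16.4, 143, 70.1 and 20.7 CPM in the PAM3CSK4 libraries. As with Spic, PAM3CSK4 replicate 2 was highest and replicate 1 lowest, and every PAM3CSK4 library was above every vehicle library. The log2 change was 2.49 ± 0.56 (adjusted p = 0.0267), and the call was lost in the same 6 settings as for Spic (adjusted p up to 0.11). Without PAM3CSK4 replicate 2, the highest library for both genes, Spic and Nr1h3 still rose, by 1.65 and 1.93 on the log2 scale (adjusted p = 0.0278 and 0.0334).

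Maf (chromosome 8, 115703253 to 115706894), the basic leucine zipper factor c-Maf, stood at 20.1, 48.6, 29.0 and 20.8 CPM with vehicle. With PAM3CSK4 it stood at 27.5, 239, 123 and 53.3 CPM. The groups overlapped, since PAM3CSK4 replicate 1 lay below vehicle replicates 2 and 3. The log2 change of 1.52 ± 0.55 did not pass (adjusted p = 0.12), and it passed without PAM3CSK4 replicate 1 (2.03, adjusted p = 0.022). It also passed with the replicate number as a block (adjusted p = 0.023). Without PAM3CSK4 replicate 2, the highest library, it was 1.01 (adjusted p = 0.229).

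Of the surface and secreted products, Cd5l (chromosome 3, 87357881 to 87371074) had the largest log2 change of the tested members. Vehicle libraries held 5.36, 6.30, 1.33 and 3.95 CPM of Cd5l and PAM3CSK4 libraries 11.5, 66.6, 29.9 and 67.3 CPM. Here PAM3CSK4 replicates 2 and 4 were highest together, unlike Spic and Nr1h3, for which replicate 4 was near the low end of its group. The log2 change was 2.92 ± 0.52 (adjusted p = 0.010) and passed with any 1 of the 8 libraries left out, but not when genes of low values were kept (adjusted p = 0.0717).

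Adgre1 (chromosome 17, 57358686 to 57483529), which encodes F4/80, stood at 49.4, 98.8, 56.3 and 43.0 CPM with vehicle. With PAM3CSK4 it stood at 104, 709, 228 and 65.3 CPM. PAM3CSK4 replicate 4 lay below vehicle replicate 2, so the groups overlapped. The log2 change of 1.62 ± 0.59 did not pass (adjusted p = 0.12). It was 2.11 and passed without PAM3CSK4 replicate 4 (adjusted p = 0.017), and 0.97 without replicate 2 (adjusted p = 0.20). With the replicate number as a block it passed as well (adjusted p = 0.027).

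Siglec1 (chromosome 2, 131069220 to 131086765) went the other way. The vehicle libraries held 42.5, 59.4, 32.1 and 45.5 CPM and the PAM3CSK4 libraries 3.96, 34.3, 20.6 and 9.71 CPM. The groups overlapped only through PAM3CSK4 replicate 2, which lay above vehicle replicate 3. The log2 change of −1.66 ± 0.49 did not pass (adjusted p = 0.069). It passed without PAM3CSK4 replicate 2 (−2.10, adjusted p = 0.021) and with the replicate number as a block (adjusted p = 0.036). It also passed after rescaling libraries to a common total (−1.80, adjusted p = 0.047) and after median centring (−1.88, adjusted p = 0.043). The dendritic cell gate did not use CD169.

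Vsig4 (chromosome X, 96247203 to 96293438) was listed at the lowest value in 4 of the 8 dendritic cell libraries, and its highest values were 0.343 CPM in vehicle replicate 2 and 0.142 CPM in PAM3CSK4 replicate 2. If 1 step of the values is 1 read, these are 13 and 4 reads. It was below the filter on low values, and an exact permutation test found no difference between the groups (p = 0.71, where the smallest p possible is 0.029). At this depth a change of Vsig4 was not detectable.

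**Figure D2:**
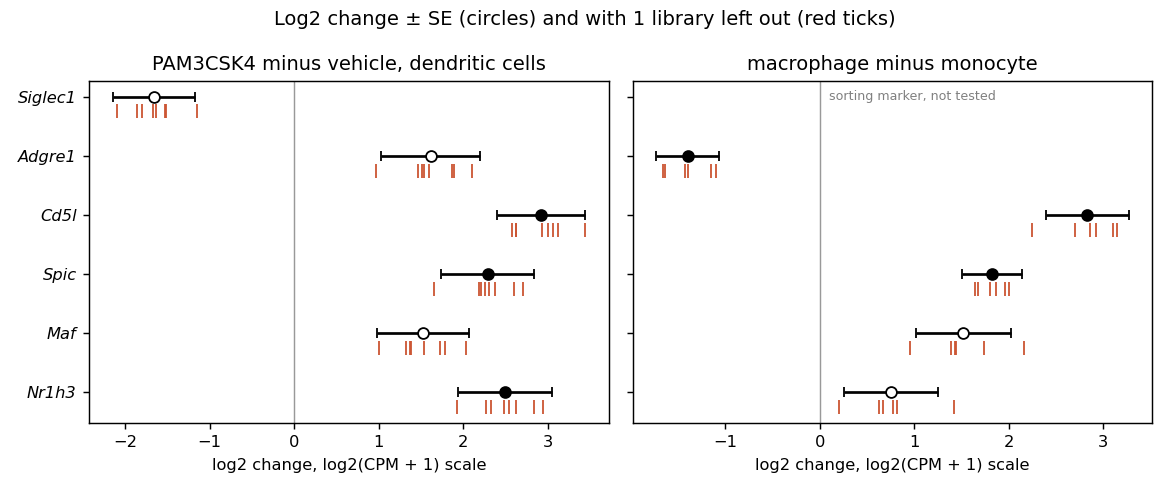
Log2 change of the tested members on the log2(CPM + 1) scale, for PAM3CSK4 minus vehicle in dendritic cells (left) and macrophage minus monocyte (right). Circles are estimates with SE, filled where the adjusted p is under 0.05, and red ticks below them are the estimates with 1 library left out in turn. Cd5l and Spic are filled in both panels, Adgre1 has opposite signs between the panels, and Siglec1 is not tested at the right because it is a sorting marker.

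Ratios within a library do not depend on how libraries were scaled. The ratio of Spic to Siglec1 reads was 0.149, 0.143, 0.224 and 0.125 in vehicle replicates 1 to 4 and 3.78, 4.17, 2.24 and 1.97 in PAM3CSK4 replicates 1 to 4. For Maf, which did not pass alone, the ratio to Siglec1 was 0.456 to 0.905 with vehicle and 5.49 to 6.97 with PAM3CSK4. The PAM3CSK4 libraries thus differed less in the Maf ratio than in the level of either gene, which spanned 8.69 times for Maf and 8.67 times for Siglec1. The ratios of Nr1h3 (0.143 to 0.182 and 2.14 to 4.16), Cd5l (0.0414 to 0.126 and 1.45 to 6.93) and Adgre1 (0.944 to 1.76 and 6.72 to 26.2) separated the groups as well. These ratios were looked at after the levels had been seen and are given with no test. A ratio shows unequal change of its genes and not which of them changed.

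**Figure D3:**
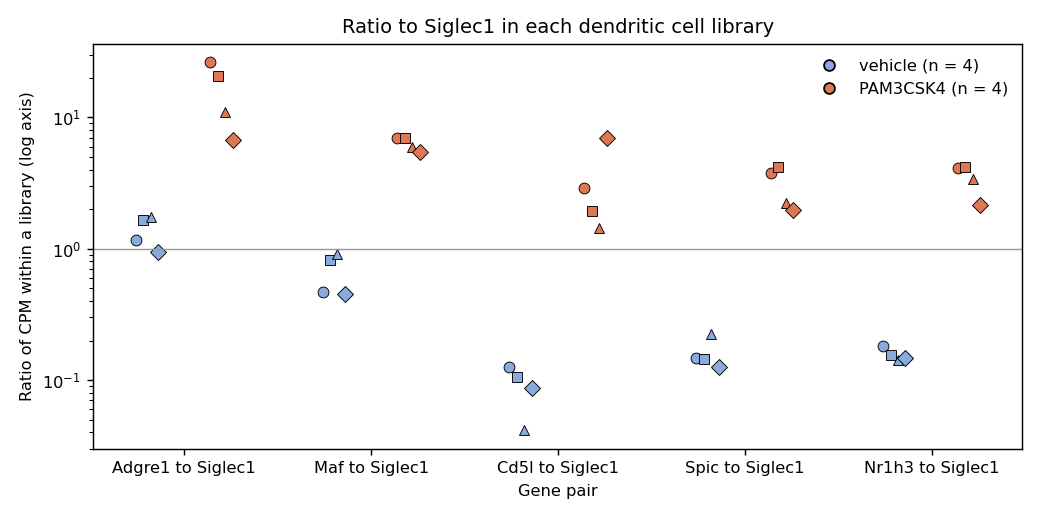
Ratio of the CPM of 5 members to that of Siglec1 within each dendritic cell library (log axis). Blue symbols are vehicle and red symbols PAM3CSK4 libraries (n = 4 each), with the symbol shapes standing for replicates 1 to 4. In each of the 5 pairs all red symbols lie above all blue ones, with the Maf ratio at 0.456 to 0.905 against 5.49 to 6.97.

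Markers of other cells moved with the treatment in some libraries. The summed level of 9 neutrophil markers was 403 to 787 CPM with vehicle and 466, 1447, 863 and 11355 CPM in PAM3CSK4 replicates 1 to 4. That of 9 erythroid markers was 9.53 to 176 CPM with vehicle and 89.2, 373, 259 and 1007 CPM with PAM3CSK4, and 3 of the 8 tested (Hbb-bs, Hbb-bt and Alas2) rose. That number was 0 without vehicle replicate 1, 2 or 3, 4 without vehicle replicate 4, 1 without PAM3CSK4 replicate 2 or 3 and 7 without PAM3CSK4 replicate 1. The dendritic cell markers summed to 899 to 1033 CPM with vehicle and to 607, 331, 504 and 67.2 CPM with PAM3CSK4. Of 6 tested, 2 fell (Zbtb46 and Cd209a). Only Cd209a did so without any 1 vehicle library or PAM3CSK4 replicate 2 or 3, and when genes of low values were kept. Without PAM3CSK4 replicate 1 or 4, Clec9a fell too. The monocyte markers summed to 1428 to 2213 CPM with vehicle and 726 to 1170 CPM with PAM3CSK4, with 2 of 7 lower (Ccr2 and Fn1). PAM3CSK4 replicate 4 stands apart in the neutrophil, erythroid and dendritic cell sums. Without it, Cd5l, Spic and Nr1h3 rose by 2.62, 2.60 and 2.84 on the log2 scale (adjusted p = 0.0050, 0.0068 and 0.0041). PAM3CSK4 replicates 2 and 3, still in that fit, lay above every vehicle library in the erythroid sum and below all of them in the dendritic cell sum. The part of the erythroid and other markers in the members' changes was not tested.

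Other macrophage genes did not move as one group in dendritic cells. Of 19 core tissue macrophage genes, 1 rose, 1 fell and 17 did not pass, with a median log2 change of 0.06 against 0.20 over all genes. The cysteine protease Ctsl rose (12.7 ± 3.38 CPM with vehicle, 44.8 ± 18.8 with PAM3CSK4, SD, n = 4) and the efferocytosis receptor Axl fell (112 ± 44.0 and 25.5 ± 14.5 CPM). The selenium carrier Selenop (log2 change −1.16 ± 0.47) and the lysosomal membrane protein Lamp2 (0.67 ± 0.33) did not pass. The 14 resident macrophage markers, which include the 7 members, summed to 565, 914, 539 and 535 CPM in vehicle replicates 1 to 4. In PAM3CSK4 replicates 1 to 4 they summed to 361, 2364, 999 and 446 CPM. Of 13 tested, 3 rose (Cd5l, Spic and Nr1h3), 1 fell (Cd163) and 9 did not pass. The number that rose was 1 without any 1 vehicle library or PAM3CSK4 replicate 3, and 4 without PAM3CSK4 replicate 1 or 4. It was 0 when genes of low values were kept.

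Genes of erythroblast island and iron-recycling macrophages split in dendritic cells: of 12 tested, 3 rose (Hmox1, Blvrb and Marco), 4 fell (Cd163, Mrc1, Hpgd and Trf) and 5 did not pass. Hmox1 and Blvrb are enzymes of heme breakdown. The call of Hmox1 was lost without vehicle replicate 1, 3 or 4 and when genes of low values were kept. That of Blvrb was lost in the same settings and without vehicle replicate 2 or PAM3CSK4 replicate 2 or 3. It was also lost at a common total and after median centring. Cd163, the receptor that takes up haemoglobin bound to haptoglobin, fell from 44.4 ± 14.7 to 4.31 ± 1.94 CPM. Transferrin (Trf) had a log2 change of −4.09 ± 0.26, the prostaglandin-degrading enzyme Hpgd one of −4.08 ± 0.33 and the scavenger receptor Marco one of 5.20 ± 0.52, all past the threshold in every setting tried. The number that rose was 1 without vehicle replicate 1, 3 or 4, and 2 without vehicle replicate 2 or PAM3CSK4 replicate 2 or 3. Timd4, a phosphatidylserine receptor of resident macrophages, and the erythropoietin receptor Epor were below the filter.

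Of 12 partners and target genes of LXR, 1 rose, 1 fell and 10 did not pass, although Nr1h3 itself rose. The lipid carrier Apoe fell from 440 ± 121 to 61.3 ± 34.7 CPM (adjusted p = 0.0013), and the phospholipid-remodelling enzyme Lpcat3 rose from 16.4 ± 3.81 to 31.9 ± 7.17 CPM (adjusted p = 0.0499), a call lost in 11 of 13 alternatives. The GTPase Arl4c (−1.17 ± 0.36) and the phospholipid transfer protein Pltp (1.07 ± 0.49) did not pass, with Pltp passing without PAM3CSK4 replicate 4 (adjusted p = 0.0040). Of 14 regulators known to act on or beside Spic and Maf, 1 fell and 13 did not pass: Irf4, a lymphoid and dendritic cell factor, by 2.19 ± 0.54 on the log2 scale (adjusted p = 0.039), a call lost without any 1 of 6 libraries. Runx1 (0.79 ± 0.31), Mafg (0.83 ± 0.32) and Bach2 (−0.84 ± 0.42) did not pass, nor did Bach1, at 135 ± 25.7 CPM with vehicle and 108 ± 31.4 with PAM3CSK4. Bach1, the heme-sensitive repressor of Spic and Hmox1, was singled out there after its values had been seen.

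Among 14 tested relatives of the members, 3 rose and 2 fell. The list of relatives also holds Itgam and C3, which are tied to Vsig4 through complement and not by family. Siglece, another sialic acid receptor of the Siglec1 family, rose from 13.8 ± 3.18 to 162 ± 113 CPM (adjusted p = 0.0014), whereas Siglec1 itself had a lower mean. Itgam, a subunit of complement receptor 3, rose by 1.50 ± 0.34 on the log2 scale, and Cd33 fell by 1.86 ± 0.46. The calls of Itgam and Cd33 were lost without any 1 of 5 and 7 libraries (adjusted p up to 0.0916 and 0.105), and both were lost when genes of low values were kept (0.101 and 0.129). Without any 1 vehicle library or PAM3CSK4 replicate 3 the counts of relatives were 1 higher and 1 lower. The other relatives that passed were Siglech (higher) and Cd163 (lower), the latter a relative of Cd5l through its scavenger receptor domains and counted above among the iron genes too.

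By pattern over the 8 dendritic cell libraries, the genes most like each member were named by the Pearson r of log2(CPM + 1) among 11377 genes, with no test. Spic was most like the elongation factor Ell2 (r = 0.988) and the lectin receptor Clec4a2 (0.987), and Nr1h3 was most like Ms4a6d (0.994) and Dgkh (0.984). Adgre1 was most like the lysosomal phosphatase Acp2 (0.996) and Itsn1 (0.983), Maf most like Fbxo30 (0.985) and the amino acid transporter Slc7a8 (0.983), and Cd5l most like Nbas (0.991) and Ufc1 (0.986). Siglec1 was most like the interferon-induced gene Ifit3 (0.972) and Zfyve9 (0.965). Among the members, Nr1h3 ranked 6th for Spic (0.982) and Adgre1 44th (0.952), while Siglec1 ranked 8908th (−0.19). The 8 points share the treatment groups and differ in depth.

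At baseline, 3 of the 5 tested members differed between macrophages and monocytes, 2 higher and 1 lower, where 20.2% of 12188 genes tested differed, 12.8% higher in macrophages and 7.42% lower. Cd5l and Spic were higher by 9.14 and 6.45 times in group means, and Adgre1 was lower by 2.74 times. The median log2 difference of the 5 members was 1.52, against 0.10 over all genes tested, again a description of members chosen with earlier results known. Siglec1, the gene of the sorting marker, was left out of these counts and of the median, and its level overlapped between the groups. The 3 members that passed were also those whose groups did not overlap, where 34.2% of all genes had no overlap, 20.4% higher and 13.8% lower.

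**Figure D4:**
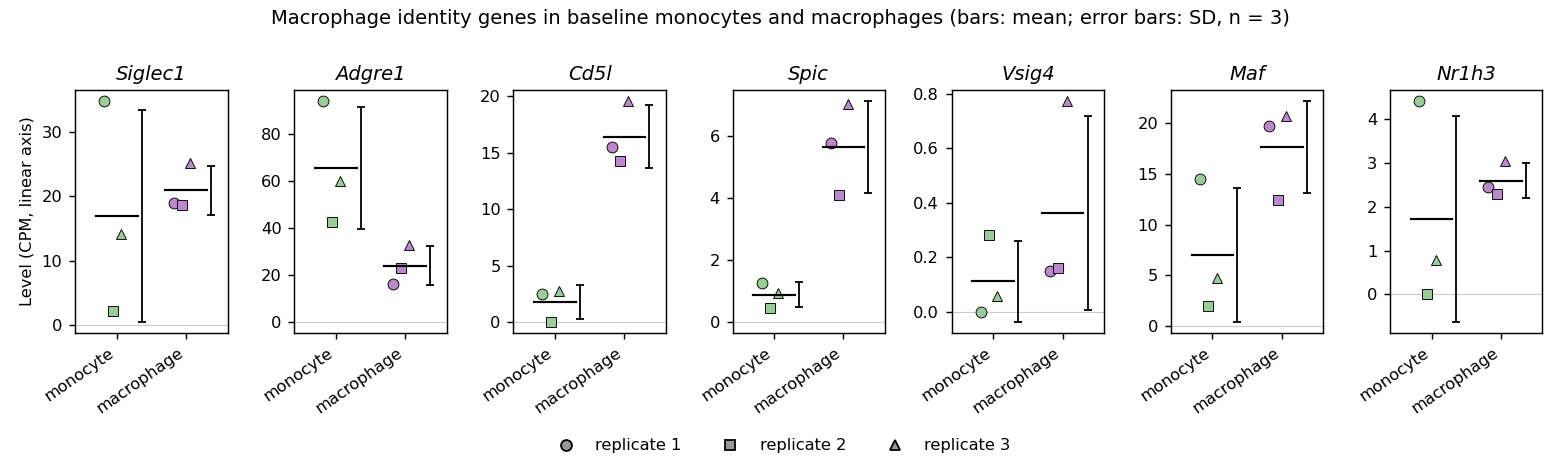
Level of each of the 7 genes in CPM (linear axes, one panel per gene) in baseline monocyte and macrophage libraries. Each symbol is 1 library with its replicate number, horizontal bars are means and error bars SD (n = 3). Cd5l and Spic lie higher and Adgre1 lower in macrophages, and monocyte replicate 1 holds the highest Siglec1 of all 6 libraries (34.7 CPM).

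Cd5l stood at 2.53, 0.0802 and 2.78 CPM in monocyte replicates 1 to 3 and at 15.5, 14.2 and 19.5 CPM in macrophage replicates 1 to 3. The macrophage libraries lay within 1.37 times of each other. The log2 difference was 2.83 ± 0.44 (adjusted p = 0.00076). Spic stood at 1.24, 0.441 and 0.938 CPM in monocytes and at 5.77, 4.08 and 7.04 CPM in macrophages, a log2 difference of 1.82 ± 0.31 (adjusted p = 0.0015). Both calls held in all 11 alternatives tried, including each library left out.

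Adgre1 stood at 93.9, 42.6 and 60.0 CPM in monocytes and at 16.2, 22.9 and 32.6 CPM in macrophages. F4/80 is the classical surface marker of mouse macrophages, and its gene was lower in each macrophage library than in any monocyte library. The log2 difference was −1.40 ± 0.33 (adjusted p = 0.011), a call lost without macrophage replicate 1 or 2 (adjusted p = 0.073 and 0.052).

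Siglec1 stood at 34.7, 2.20 and 14.1 CPM in monocytes, a range of 15.8 times, and at 18.9, 18.6 and 25.2 CPM in macrophages. All macrophage libraries lay between monocyte replicates 3 and 1. Because the macrophage gate asked for CD169, these levels are a description and no test of them is given. Monocyte replicate 1 was the highest monocyte library for Adgre1, Spic, Maf, Nr1h3 and Siglec1, and monocyte replicate 2 was the lowest for those 5 genes and for Cd5l.

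Maf stood at 14.5, 1.92 and 4.69 CPM in monocytes and at 19.7, 12.4 and 20.8 CPM in macrophages. Its log2 difference of 1.52 ± 0.50 fell just short of the threshold (adjusted p = 0.0504). With no library left out, it passed at a common total (1.68, adjusted p = 0.043) and with the replicate number as a block (adjusted p = 0.024). It was 2.16 without monocyte replicate 1 (adjusted p = 0.00035) and 0.96 without monocyte replicate 2 (adjusted p = 0.12). Nr1h3 stood at 4.40 and 0.788 CPM in monocyte replicates 1 and 3, was listed at 0 in replicate 2 and stood at 2.45, 2.29 and 3.05 CPM in macrophages. Its difference of 0.75 ± 0.50 did not pass (adjusted p = 0.35) and passed without monocyte replicate 1 (1.42, adjusted p = 0.012), while it was 0.20 without monocyte replicate 2 (adjusted p = 0.762). Vsig4 stood at 0.150, 0.161 and 0.771 CPM in macrophages and at most at 0.280 CPM in monocytes, with exact permutation p = 0.40, where 0.10 is the smallest possible. CRIg is a defining receptor of resident macrophages in liver, and its gene was nearly absent from these marrow libraries.

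The label of the macrophage libraries was thus met by some defining markers and not by others. Of 12 tested resident macrophage markers, 4 were higher in macrophages than in monocytes (Cd5l, Spic, Mertk and Vcam1), 2 lower (Adgre1 and Fcgr1) and 6 did not pass. Without monocyte replicate 1 the number higher was 10, and without macrophage replicate 1 or 2 the number lower was 0. With Siglec1 and Vsig4, these markers summed to 309, 238 and 364 CPM in macrophages and to 337, 99.3 and 143 CPM in monocytes. Markers of other cells were also high in the macrophage libraries: B and plasma cell markers summed to 2380, 559 and 8394 CPM against at most 128 in monocytes, stem and progenitor markers to 1245, 699 and 464 against at most 290, and NK and T cell markers to 326, 206 and 109 against at most 22.6. Erythroid markers summed to 75.0, 116 and 672 CPM against at most 62.1, with 9 of 9 higher (2 without monocyte replicate 2, 4 without macrophage replicate 2, 5 after median centring, 0 when genes of low values were kept), and dendritic cell markers to 404, 622 and 220 CPM against 67.5 to 332. Megakaryocyte markers summed to 157, 228 and 66.6 CPM against at most 10.4. Monocyte markers, the gate genes Csf1r and Cx3cr1 included, summed to 519, 328 and 807 CPM in macrophages and to 7253 to 8766 in monocytes. All 5 tested, which leave out those gate genes, were lower in macrophages. Neutrophil markers summed to 3930, 1578 and 1797 CPM in macrophages and to 3209, 2853 and 2189 CPM in monocytes, with 6 of 8 tested higher and 2 lower (Elane and Mpo). Macrophage replicate 3, with the highest B cell and erythroid sums, also held the highest Cd5l and Spic, and without it Cd5l and Spic stayed past the threshold. Macrophage replicates 1 and 2, still in that fit, lay above every monocyte library in both of these sums. The part of these markers in the members' differences was not tested.

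Of 18 core tissue macrophage genes tested, 1 was higher, 5 were lower and 12 did not pass in the macrophage libraries, with a median log2 difference of −0.14 against 0.10 over all genes. That median was 0.03 at a common total, where all genes had 0.26. The count of lower genes was 2 without macrophage replicate 1, 1 without macrophage replicate 2 and 3 without monocyte replicate 3. Without monocyte replicate 1, 5 were higher and 5 lower. Csf1r, the receptor of the macrophage growth factor and the CD115 of the monocyte gate, stood at 559 ± 273 CPM in monocytes and 37.1 ± 14.3 in macrophages (SD, n = 3), given without a test because the gate chose on it. The endosomal glycoprotein Cd68 stood at 102 ± 30.5 and 23.2 ± 0.809 CPM, and the IgG receptor Fcgr1 at 15.8 ± 11.7 and 3.77 ± 0.678 CPM. Mertk, a receptor for dying cells, was higher in macrophages, at 13.9 ± 2.12 CPM against 4.78 ± 3.71 (adjusted p = 0.016). The calls of Mertk and Fcgr1 were lost with 4 and 3 alternatives.

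Among genes of erythroblast island and iron-recycling macrophages, more were higher than lower in the macrophage libraries: of 13 tested, 5 were higher, 1 lower and 7 did not pass, with a median log2 difference of 0.85. The iron exporter Slc40a1 stood at 61.9 ± 18.9 CPM against 8.90 ± 6.31 in monocytes (log2 difference 2.82 ± 0.42). The adhesion molecule Vcam1 stood at 90.2 ± 25.4 CPM against 19.2 ± 9.19. Timd4, at 3.87 ± 2.10 against 0.135 ± 0.152 CPM, and Epor, at 5.34 ± 2.75 against 0.595 ± 0.515 CPM, were higher as well. These 4 passed in every alternative, Hmox1 was also higher, and Hpgd was lower. The call of Hmox1 was lost without macrophage replicate 1 or 3 and when genes of low values were kept, and that of Hpgd without macrophage replicate 1 or 2. Epor is made by erythroid progenitors too, whose markers were higher in these libraries.

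**Figure D5:**
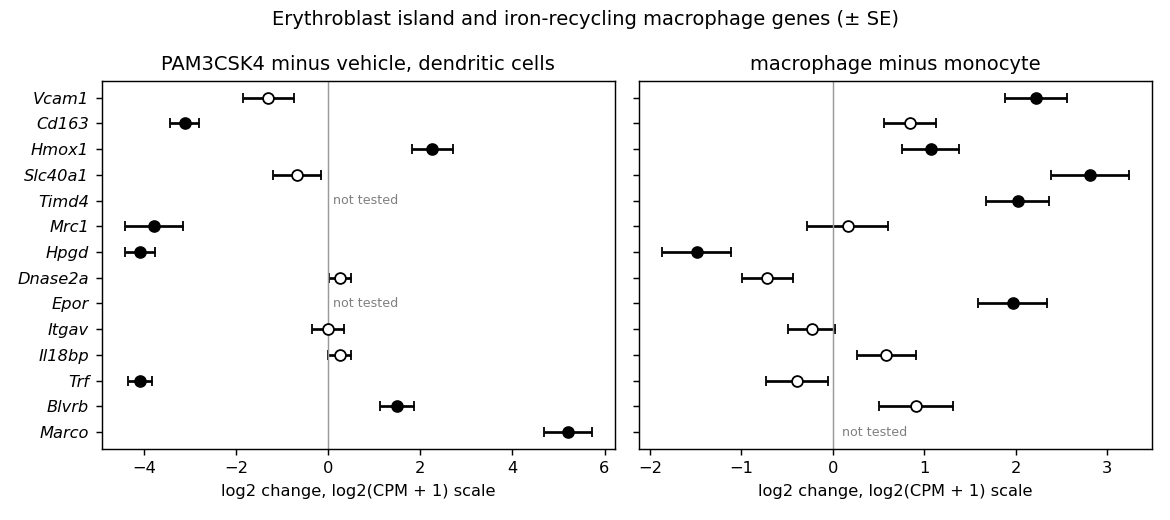
Log2 change (± SE) of 14 erythroblast island and iron-recycling macrophage genes for PAM3CSK4 minus vehicle in dendritic cells (left) and macrophage minus monocyte (right), on the log2(CPM + 1) scale. Filled circles have an adjusted p under 0.05. In dendritic cells 3 are higher and 4 lower, led by Marco at 5.20, and in macrophages 5 are higher and 1 lower, led by Slc40a1 at 2.82.

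LXR partners and targets showed 1 higher, 1 lower and 10 not passed of 12. The acid sphingomyelinase-like enzyme Smpdl3a was lower in macrophages (41.6 ± 8.39 CPM against 135 ± 18.6). The cholesterol exporter Abca1 was higher (67.6 ± 35.7 against 22.9 ± 20.6 CPM, adjusted p = 0.033), a call lost in 7 of 11 alternatives, and Arl4c (−0.84 ± 0.28) and Mylip (0.88 ± 0.30) did not pass. Of 13 tested regulators beside Spic and Maf, 1 was higher and 3 lower, or 5 lower after median centring. The repressor Bach1 stood at 58.5 ± 12.2 CPM in macrophages and 152 ± 32.4 in monocytes (adjusted p = 0.0026). Bach1 is known to repress Spic, and a link between their levels in these libraries was not tested. The myeloid factor Spi1 (PU.1), of the same ETS family as Spic, stood at 55.7 ± 11.9 and 144 ± 45.9 CPM, and Zeb2 at 96.4 ± 4.75 and 444 ± 67.5 CPM. Maff, a small MAF protein, was higher in macrophages (4.45 ± 2.64 against 0.748 ± 0.439 CPM).

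Of 15 relatives of the members, Itgam and C3 again included, 3 were higher and 8 lower in macrophages, with a median log2 difference of −1.17. Siglecf, an eosinophil and alveolar macrophage receptor of the Siglec1 family, was higher (11.4 ± 2.01 against 2.98 ± 0.703 CPM). The others higher were Cd5 and Cd6, in libraries where 6 of 7 tested NK and T cell markers were higher too. A link between them was not tested. The scavenger receptor Msr1 (2.08 ± 1.82 against 36.3 ± 10.8 CPM), the complement component C3, which CRIg binds (125 ± 57.9 against 802 ± 193 CPM), and Itgam (79.9 ± 22.8 against 279 ± 67.1 CPM) were lower. Adgre4, a receptor of the Adgre1 family, was among the 8. The number lower was 5 without macrophage replicate 2, and the number higher was 1 without macrophage replicate 1. Over these 6 libraries Cd5l was most like Itgad (r = 0.999) and Cbarp (0.996), Spic most like Vstm4 (0.997) and 0610039H22Rik (0.997), and Adgre1 most like Cyp4f18 (0.991) and Ift46 (0.990). Maf was most like Alox5 (0.993) and Tmco6 (0.991), Nr1h3 most like the receptor Axl (0.993) and Ifit1 (0.992), and Siglec1 most like Sppl2b (0.996) and Ppp6r2 (0.989).

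Across the 4 groups the order of mean levels differed between the members. Dendritic cells and the other cells are in tables made separately, so levels across them are set side by side with no test. Spic ran from PAM3CSK4 dendritic cells (55.8 ± 59.8 CPM) through vehicle dendritic cells (6.93 ± 1.22) and macrophages (5.63 ± 1.48) to monocytes (0.872 ± 0.403), and the ranges of the middle pair overlapped. Cd5l ran from PAM3CSK4 dendritic cells (43.8 ± 27.8) through macrophages (16.4 ± 2.76) and vehicle dendritic cells (4.24 ± 2.17) to monocytes (1.79 ± 1.49), with overlap between the first 2 and between the last 2. Maf and Nr1h3 ran in the order of Spic, with means of 111 ± 94.7, 29.6 ± 13.3, 17.6 ± 4.54 and 7.03 ± 6.60 CPM for Maf and 62.5 ± 58.8, 7.07 ± 1.97, 2.60 ± 0.398 and 1.73 ± 2.35 CPM for Nr1h3. For Maf each neighbouring pair in this order overlapped, and for Nr1h3 macrophages and monocytes did.

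Adgre1 ran from PAM3CSK4 dendritic cells (276 ± 296 CPM) through monocytes (65.5 ± 26.1) and vehicle dendritic cells (61.9 ± 25.2) to macrophages (23.9 ± 8.27), and only the macrophages lay outside the range of their neighbour. Siglec1 ran from vehicle dendritic cells (44.9 ± 11.2) through macrophages (20.9 ± 3.75) and PAM3CSK4 dendritic cells (17.2 ± 13.4) to monocytes (17.0 ± 16.5), and each of the last 2 neighbouring pairs overlapped. The highest mean of the CD169 gene was thus in vehicle dendritic cells, a population not gated on CD169. Vsig4 had a mean of at most 0.361 CPM in any of the 4 groups.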

How the data were processed

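RNA was purified with the RNeasy Micro kit and libraries were made with the KAPA RNA HyperPrep kit with RiboErase, per the labels' protocols. The authors deposited values per gene in 2 separate tables, for dendritic cells and for monocytes and macrophages. Both list 0.0001 as the lowest value, which stands for 0. The authors call the values FPKM, but they were treated as CPM because the same step recurred among short and long genes of a library. Of low values, 65.9% to 68.7% in dendritic cells and 87.7% to 90.5% in the others were whole multiples of a step within 0.05 steps. In dendritic cells these shares were 74.2% to 78.7% for short genes and 57.6% to 59.7% for long genes. In the others they were 85.9% to 89.8% and 90.8% to 93.0%. Since many low values were not whole multiples, reads were not recovered and no count test was run. The build mm10, STAR 2.5.3a and Partek are named per the submitters' processing notes, with no role given. The annotation and strand setting were not given in the sources used here, and reads of genes that overlap, or lie antisense, may be mixed. The other 3 columns of per-sample values match no single sample by name and were not used.

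Values were tested as log2(CPM + 1) with limma 3.58.1 in R 4.3.3, within each table, over genes that reached 1 CPM in as many libraries as 1 group has (4 in dendritic cells, 3 otherwise), with a mean-dependent prior variance. P-values were adjusted by Benjamini-Hochberg over all genes tested, with a threshold of 0.05. A fold change on the log2(CPM + 1) scale understates that of low genes. Siglec1, Csf1r and Cx3cr1, whose products the macrophage and monocyte gates chose on, were left out of tests and counts between those cells. The test was checked on simulated data. Vsig4, below the filter, had an exact two-sided permutation test. Named genes are the 7 members, the 4 genes of lowest p in each list and comparison, and the 2 genes most like each member. The members and lists were chosen with earlier results of these data known. Alternatives were another pseudocount (0.1), no filter, rescaling to a common total, median centring, a replicate block and leaving out each library.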

Additional observations from a re-analysis of the deposited data

Results flagged for a closer look

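The scavenger receptor Marco stood at 15.7 CPM in PAM3CSK4 replicate 1, the lowest of its group, while the other 3 PAM3CSK4 libraries lay between 89.6 and 103 CPM. The gap to the nearest library was 0.844 of the range of the group, above the 95% critical value of Dixon's test. It was the only one of 52 groups of 4 libraries tested that was so marked, and chance marks about 1 in 20.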

How the results depend on the processing

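The number of genes that changed in dendritic cells was 582 as reported, 166 with no filter on low values and from 184 to 1008 with 1 library left out. With the replicate block it was 976. The labels give only a shared replicate number, so the numbers were not taken as pairs in the main fit. Same-numbered libraries did not all deviate together (r of −0.12 to 0.30 for the dendritic cell numbers and 0.08 to 0.18 for the others). Among the macrophage libraries, each monocyte library correlated best in these deviations with that of its own number. The same held for 3 of 4 vehicle libraries among the PAM3CSK4 libraries. Under the replicate block, 5 members rose (Adgre1, Cd5l, Spic, Maf and Nr1h3) and 1 fell (Siglec1) in dendritic cells. In macrophages 3 were higher (Cd5l, Spic and Maf) and 1 lower (Adgre1), where 2609 genes differed in all against 2468 without the block. Scaling moved the split of dendritic cell calls from 321 higher and 261 lower to 276 and 390 at a common total and to 208 and 487 after median centring, and the median log2 change of all genes from 0.20 to 0.07 and −0.02. In macrophages against monocytes the split of 1564 and 904 became 2068 and 768, and 1370 and 1303. Of 133 alternative values of the tested members, 106 kept their direction and side of the threshold, 15 lost and 12 gained the call, and the direction turned in 0. The cause of these changes was not tested.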
